A study of Mus musculus with 2 samples.

Results

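The genes described here are the 52 Wnt ligands, Wnt secretion genes, cell-surface receptors, R-spondins and secreted antagonists chosen by name from the 43346 Ensembl genes of the deposited tables. They comprise 19 Wnt ligands, 2 secretion genes, 10 Frizzled receptors, 7 other receptors, 4 R-spondins and 10 secreted antagonists. The RNA came from the sigmoid colon, the stretch of large bowel that leads into the rectum. The donor was 1 female C57BL/6J mouse, an inbred strain, at 10 weeks of age, and its polyadenylated RNA was sequenced. The samples are 2 technical libraries of that mouse, named by the technical replicate numbers in the labels. Library 2 was added in 2015 and library 1 was the earlier one. The labels list no transgene, treatment or second animal. No groups were compared, no p-value was computed, and each ± below is an SD over n = 2 technical libraries that says nothing about other mice.

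Wnt proteins are secreted signals that carry a lipid, attached inside the cell by the acyltransferase Porcn and taken to the cell surface by the carrier Wls. A Wnt that binds a Frizzled receptor together with the co-receptor Lrp5 or Lrp6 stops the breakdown of β-catenin, whereas receptors such as Ror1, Ror2 and Ryk serve other branches of the pathway. In the gut, Wnts and R-spondins made largely by the stroma beneath the crypts keep the epithelial stem cells dividing. R-spondins act through Lgr receptors by keeping Frizzled and Lrp on the cell surface, and secreted frizzled-related proteins, Dickkopfs and Wif1 bind Wnts or their co-receptors outside the cell.

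The ligands share the short stretch that receives the lipid, and it is printed first because secretion by Porcn and Wls turns on it. Each line is the coding strand of the mouse transcript, 5′ to 3′, from GENCODE M21 on GRCm38, with the codon of the modified serine in capitals. A translated pattern of cysteine, histidine or glutamine, glycine, any residue, serine, glycine, any residue and cysteine was matched once in each of 18 Wnt genes. The 7 ligands that averaged at least 10 expected counts are shown, and Wnt3a is shown as a ligand with 0 counts in both libraries.
Wnt5a: tgtcatggagtgTCTggctcctgt
Wnt2b: tgtcacggtgtgAGTggctcctgt
Wnt5b: tgtcacggagtcTCCgggtcctgc
Wnt4: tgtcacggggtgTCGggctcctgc
Wnt2: tgtcatggtgtgAGTggctcctgt
Wnt8b: tgccacggtgtgTCCggcagctgc
Wnt9a: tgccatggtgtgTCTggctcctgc
Wnt3a: tgccacgggctaTCTggcagctgt
The stretches lie in 1 exon each, at chr14:28522515-28522538 (+) for Wnt5a, chr3:104951220-104951243 (-) for Wnt2b, chr6:119433800-119433823 (-) for Wnt5b and chr4:137296345-137296368 (+) for Wnt4. Those of Wnt2, Wnt8b, Wnt9a and Wnt3a are at chr6:18008792-18008815 (-), chr19:44511570-44511593 (+), chr11:59330926-59330949 (+) and chr11:59250053-59250076 (-). The share of G and C bases in the 24-base stretch was between 54.2% and 70.8% over the 18 genes.

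The sigmoid colon held transcripts of every functional group of the pathway, but at unequal levels. Lgr4 and Wls were the most abundant members in both libraries, Wnt5a and Wnt2b were the only 2 of 19 ligands at or above 1 TPM in both, and Rspo3 was the only such R-spondin. In such bulk RNA, fewer cells of a type and less RNA per cell cannot be told apart. TPM is the authors' measure of transcript abundance, a level corrected for gene length. The ratio between the libraries followed the GC content of the transcripts, as described below. Comparisons of TPM between genes of unlike GC content are therefore uncertain. Lgr4, Wls, Wnt5a and Rspo3 have between 42.0% and 46.2% GC, and Wnt2b has 56.5%. Of the 52 members, 19 (36.5%) reached 1 TPM in both libraries, against 24.8% of all Ensembl genes and 46.9% of protein-coding genes. Those 19 included, 29 members reached 1 TPM in library 2 and 20 in library 1, while 22 reached it in neither. The median member had 1.76 TPM in library 2 and 0.245 TPM in library 1, and the median protein-coding gene had 4.44 and 0.77 TPM in the same libraries.

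The libraries differ in ways that touch every level below. Library 2 held 20681574 expected counts and library 1 held 25843064. Mitochondrially encoded genes took 5.59% of the counts and 12.6% of the TPM in library 2, against 24.1% of the counts and 44.2% of the TPM in library 1. Because TPM sums to 1 fixed total, a larger mitochondrial share lowers the TPM of every nuclear gene in library 1. Nuclear protein-coding genes together held 753435 TPM in library 2 and 313320 TPM in library 1. Where a library had 0 counts, up to 3 were allowed for, which is 0.145 CPM in library 2 and 0.116 in library 1, and this floor and all intervals cover counting error only.

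**Figure D1:**
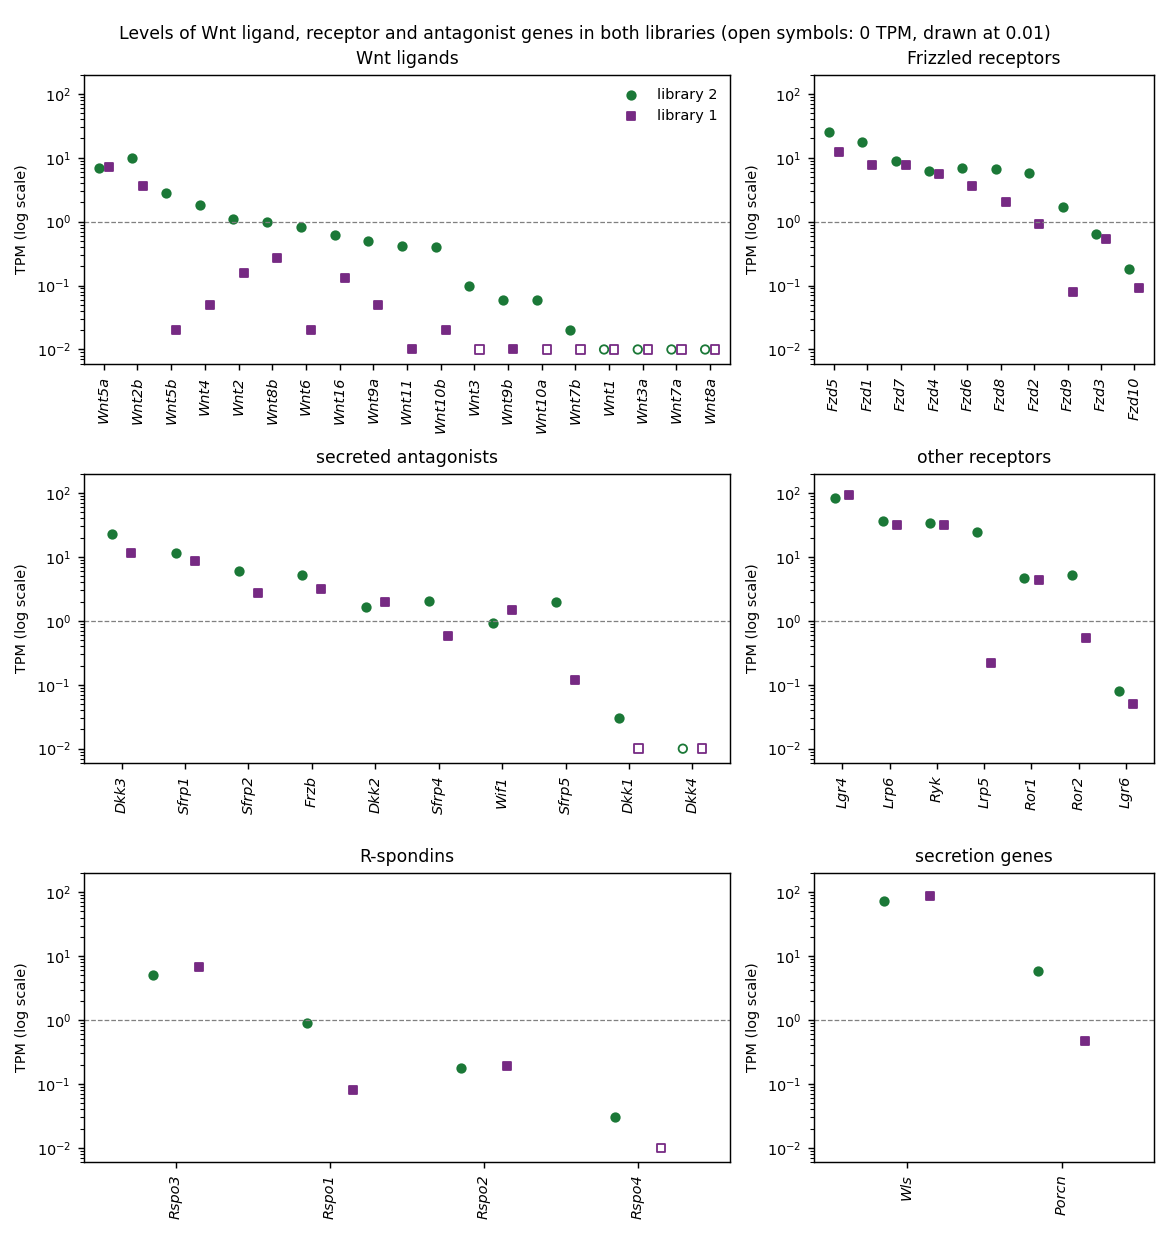
Level of each of the 52 members in TPM on a log axis, in 1 panel for each role, with library 2 as circles, library 1 as squares, open symbols for 0 TPM drawn at 0.01 and a dashed line at 1 TPM. Lgr4 at 82.4 TPM in library 2 and 93.2 TPM in library 1 is the highest member, and 25 members average below 1 TPM.

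Among the Wnt ligands, Wnt5a and Wnt2b made up most of the RNA. Wnt5a (ENSMUSG00000021994.10, chr14:28504750-28527448, plus strand), a ligand best known for signalling without β-catenin, had 6.82 TPM in library 2 and 7.10 TPM in library 1, a mean of 6.96 ± 0.198. Wnt2b (ENSMUSG00000027840.4, chr3:104945272-104961921, minus strand), a ligand that signals through β-catenin, had 9.76 TPM in library 2 and 3.61 TPM in library 1, a mean of 6.69 ± 4.35. The order of the pair differed between the libraries: Wnt2b was first in library 2 with 37.2% of the ligand TPM and Wnt5a first in library 1 with 62.0%. Wnt5b, a close relative of Wnt5a, had 2.77 TPM in library 2 and 0.02 TPM in library 1, where a single count was assigned to it. The 19 ligands summed to 26.2 TPM in library 2 and 11.5 TPM in library 1, a mean of 18.8 ± 10.5.

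The other 16 ligands averaged below 1 TPM each. Wnt4, known for its part in kidney and reproductive tract development, had 1.84 TPM in library 2 and 0.05 TPM in library 1. Wnt2 had 1.09 TPM in library 2 and 0.16 TPM in library 1, and Wnt8b had 0.98 TPM in library 2 and 0.27 TPM in library 1. Wnt1, Wnt3a, Wnt7a and Wnt8a had 0 counts in both libraries, which allows up to 3 counts in each. Wnt3, the ligand that Paneth cells supply in the small intestine, had 4 counts in library 2 and 0 in library 1. All 4 pairs of Wnt genes that lie within 50000 bases of each other (Wnt6 with Wnt10a, Wnt3a with Wnt9a, Wnt9b with Wnt3, Wnt10b with Wnt1) were among these low genes, with at most 0.82 TPM in library 2 and 0.05 TPM in library 1.

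The genes that lipid-modify and export the ligands were unequal in level. Wls (ENSMUSG00000028173.6, chr3:159839672-159938664, plus strand), the carrier, had 71.7 TPM in library 2 and 87.3 TPM in library 1, a mean of 79.5 ± 11. Porcn (ENSMUSG00000031169.9, on chromosome X), the acyltransferase, had 5.95 TPM in library 2 and 0.47 TPM in library 1, a mean of 3.21 ± 3.87. Wls thus held 92.3% of the TPM of the pair in library 2 and 99.5% in library 1.

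The Frizzled receptors bind Wnts through a cysteine-rich domain and pass the signal to Dishevelled inside the cell. They are printed next as the codons of the short Dishevelled-binding motif after the last membrane span, translated as lysine, threonine, any 3 residues and tryptophan, for the 4 genes of the highest mean TPM over both libraries and for Fzd2, whose ratio between the libraries was highest of these 5. The codons of the motif are in capitals, and the motif was found once in each of the 9 Frizzled genes searched.
Fzd5: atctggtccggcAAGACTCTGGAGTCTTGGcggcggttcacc
Fzd1: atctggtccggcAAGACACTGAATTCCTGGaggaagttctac
Fzd7: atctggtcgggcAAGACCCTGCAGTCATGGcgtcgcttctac
Fzd4: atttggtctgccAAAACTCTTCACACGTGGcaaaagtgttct
Fzd2: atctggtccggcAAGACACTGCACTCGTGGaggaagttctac
They lie at chr1:64734999-64735040 (-) for Fzd5, chr5:4755694-4755735 (-) for Fzd1, chr1:59484595-59484636 (+) for Fzd7, chr7:89408229-89408270 (+) for Fzd4 and chr11:102606361-102606402 (+) for Fzd2. Their GC content was 61.9% in Fzd5, 59.5% in Fzd7, 54.8% in Fzd2, 50% in Fzd1 and 42.9% in Fzd4.

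Fzd5 (ENSMUSG00000045005.9, chr1:64730558-64737751, minus strand), the Frizzled best known in the intestinal epithelium, was first of the family in both libraries, with 25.4 TPM in library 2 and 12.1 TPM in library 1 (mean 18.7 ± 9.41). Fzd1 was second in both, with 17.7 TPM in library 2 and 7.64 TPM in library 1, and Fzd7 came next in both, with 8.78 and 7.57 TPM in library 2 and library 1. In library 1 Fzd1 and Fzd7 differed by less than the spread of either over the libraries. Below them, Fzd6 had 6.82 TPM in library 2 and 3.60 TPM in library 1, Fzd8 had 6.59 and 2.03 TPM, Fzd4 had 6.17 and 5.55 TPM, and Fzd2 had 5.67 and 0.92 TPM in the same libraries. Fzd6, Fzd8 and Fzd2 stood in that order in both libraries, but Fzd4 ranked 6 in the family in library 2 and 4 in library 1. The order of these 4 is thus not fixed by these data. Fzd9, Fzd3 and Fzd10 averaged below 1 TPM. The 10 Frizzled genes summed to 79.6 TPM in library 2 and 40.1 TPM in library 1, a mean of 59.8 ± 27.9.

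The other receptors were led by Lgr4 (ENSMUSG00000050199.9, chr2:109917647-110014257, plus strand), a receptor for R-spondins found widely in epithelia, with 82.4 TPM in library 2 and 93.2 TPM in library 1 (mean 87.8 ± 7.65). Its relative Lgr6 had 0.08 TPM in library 2 and 0.05 TPM in library 1. The co-receptor Lrp6 (ENSMUSG00000030201.11, chr6:134446476-134566965, minus strand) had 36.9 TPM in library 2 and 31.8 TPM in library 1, and Ryk, a kinase-like Wnt receptor, had 34.1 TPM in library 2 and 31.9 TPM in library 1. Lrp6 and Ryk differed by less than their own spread and changed places between the libraries. The Ryk value in library 1 includes 9.51 TPM of Ryk-202, a 551-base retained-intron transcript with 0 TPM in library 2. Lrp5 (ENSMUSG00000024913.12, chr19:3584828-3686564, minus strand), the other co-receptor, had 24.4 TPM in library 2 and 0.22 TPM in library 1, the widest gap of any member with a mean of at least 5 TPM. The receptor tyrosine kinases that bind Wnt5a had 4.69 TPM in library 2 and 4.40 TPM in library 1 for Ror1, and 5.20 TPM in library 2 and 0.53 TPM in library 1 for Ror2.

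Lrp5 and Lrp6 are close relatives that carry the same phosphorylated motif, a run of 3 prolines followed by serine, proline, any residue and serine or threonine, repeated in the tail inside the cell. The codons of its first match are shown in capitals. These genes, alike in role and in coding length, stood far apart in library 1, at 0.22 TPM for Lrp5 and 31.8 TPM for Lrp6. In library 2 they were closer, at 24.4 TPM for Lrp5 and 36.9 TPM for Lrp6.
Lrp5: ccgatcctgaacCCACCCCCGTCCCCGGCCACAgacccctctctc
Lrp6: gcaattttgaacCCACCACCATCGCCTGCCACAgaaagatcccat
Each stretch crosses an exon junction, between chr19:3586439-3590976 (-) for Lrp5 and chr6:134453606-134454699 (-) for Lrp6. The GC content of the printed stretch was 71.1% in Lrp5 and 51.1% in Lrp6. Over the whole coding sequence, 4842 bases in Lrp5 and 4839 in Lrp6, it was 59.0% in Lrp5 and 49.3% in Lrp6.

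R-spondins strengthen Wnt signals and support crypt growth. Rspo3 (ENSMUSG00000019880.9, chr10:29452416-29535867, minus strand), the R-spondin best known from colon stroma, had 5.12 TPM in library 2 and 6.65 TPM in library 1, a mean of 5.89 ± 1.08. It held 82.2% of the R-spondin TPM in library 2 and 96.1% in library 1. Rspo1 had 0.90 TPM in library 2 and 0.08 TPM in library 1, Rspo2 had 0.18 TPM in library 2 and 0.19 TPM in library 1, and Rspo4 had 1 count in library 2 and 0 in library 1.

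Of the secreted antagonists, Dkk3, a Dickkopf relative that does not act on Lrp in the way the others do, was highest, with 22.7 TPM in library 2 and 11.7 TPM in library 1 (mean 17.2 ± 7.76). Sfrp1, a decoy that binds Wnts, was second in both, with 11.6 TPM in library 2 and 8.53 TPM in library 1. The related decoys had 6.01 TPM in library 2 and 2.70 TPM in library 1 for Sfrp2, 5.15 and 3.20 TPM for Frzb, 2.07 and 0.58 TPM for Sfrp4, and 1.98 and 0.12 TPM for Sfrp5, in the same libraries. All 6 of these antagonists had the larger TPM in library 2, while Dkk2 and Wif1 had the larger TPM in library 1. This split depends on the scale, and the median log2 ratio of TPM over all genes was 1.24. Of the 6, Dkk3, Sfrp1, Sfrp2 and Frzb had the larger value in library 1 when TPM was taken over nuclear protein-coding genes alone. Sfrp4 and Sfrp5 kept the larger value in library 2. Dkk2, which binds Lrp6, had 1.66 TPM in library 2 and 1.97 TPM in library 1, and Wif1, which binds Wnts directly, had 0.92 TPM in library 2 and 1.48 TPM in library 1. Dkk1 had 1 count in library 2 and 0 in library 1, and Dkk4 had 0 in both. The 10 antagonists summed to 52.2 TPM in library 2 and 30.3 TPM in library 1, against 79.6 and 40.1 TPM for the Frizzled receptors in the same libraries.

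The 25 members with a mean below 1 TPM are 16 ligands, Fzd3, Fzd9, Fzd10, Lgr6, Rspo1, Rspo2, Rspo4, Dkk1 and Dkk4. None exceeded 1.84 TPM or 106 counts in library 2, or 0.53 TPM or 51 counts in library 1.

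**Figure D2:**
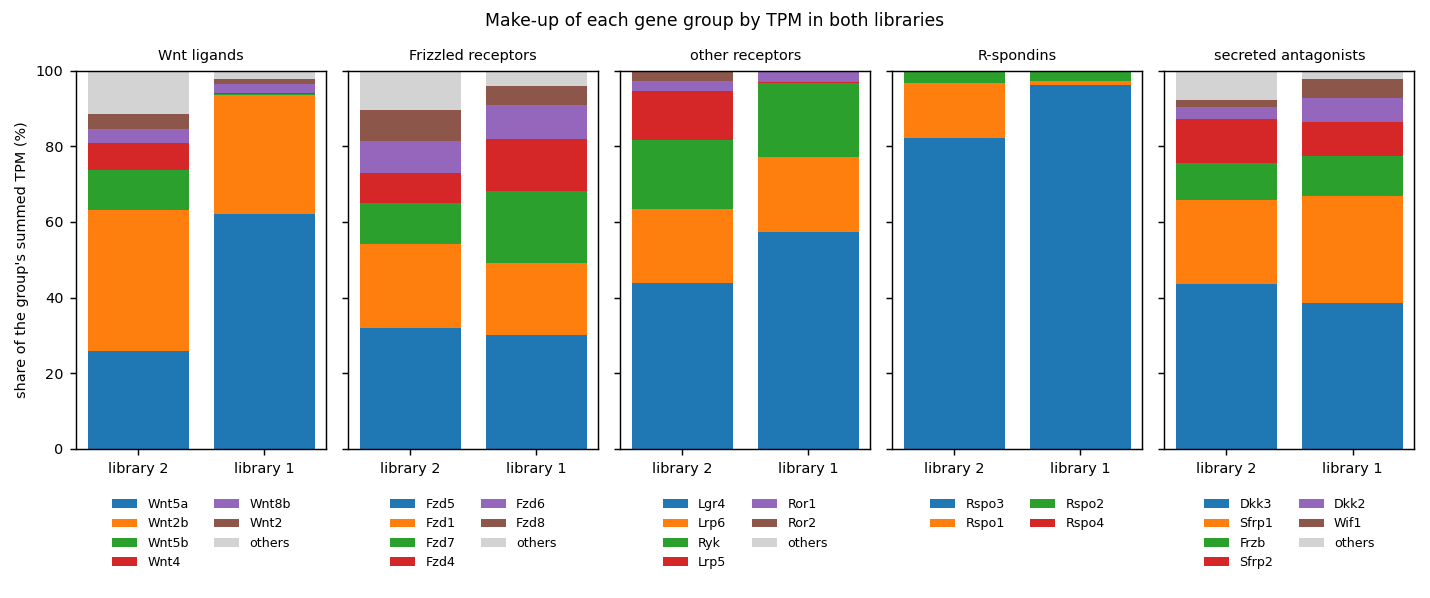
Share of each role's summed TPM (percent, bars from 0 to 100) taken by its most abundant members in library 2 and library 1, for 5 of the 6 roles (the secretion genes are not drawn). Rspo3 fills 82.2% of the R-spondin bar in library 2 and 96.1% in library 1, and Lgr4 fills 43.9% and 57.5% of the bar of the other receptors.

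The role sums depend on what is in the denominator. With TPM recomputed over the nuclear protein-coding genes alone, the Wnt ligands summed to 34.8 TPM in library 2 and 36.5 in library 1, the Frizzled receptors to 106 and 128, and the antagonists to 69.2 and 96.7. On the same scale the other receptors summed to 249 in library 2 and 517 in library 1, the secretion genes to 103 and 280.1, and the R-spondins to 8.27 and 22.1. The ligands, Frizzled receptors, other receptors and antagonists had the larger TPM sums in library 2 over all genes and the smaller ones in library 2 on this scale.

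Expected counts were next compared between the libraries after scaling by TMM, which sets the effective size of library 2 to 1.35 times that of library 1, with a change called at 2-fold or more and a mean count of at least 10. Of the 52 members 35 had that count. Of these 11 (31.4%) were higher in library 2 and 9 (25.7%) lower, and 15 were neither. Over all 15711 genes with that count 37.2% were higher and 28.3% lower, so the members' shares are near the background and are not a result about the Wnt genes. The median log2 ratio was -0.22 over the members and 0.12 over all genes. Each ratio compares 2 libraries and not 2 conditions.

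The members higher in library 2 were the ligands Wnt2, Wnt4, Wnt5b and Wnt9a, the acyltransferase Porcn, the receptors Fzd2, Fzd9, Lrp5 and Ror2, Rspo1 and Sfrp5. Lrp5 had 1716 counts in library 2 and 35 in library 1, a log2 ratio of 5.17 with a 95% exact binomial counting interval of 4.70 to 5.71, or 35.9-fold. Wnt5b had 78 counts in library 2 and 1 in library 1, a log2 ratio of 5.28 with an interval of 3.34 to 11.18. With a single count in library 1, the interval of Wnt5b is far wider than that of Lrp5. Wnt4 had 106 counts in library 2 and 5 in library 1 (3.85, interval 2.71 to 5.63). Porcn had 148 counts in library 2 and 19 in library 1 (2.50, interval 1.84 to 3.30), and Ror2 had 273 and 45 (2.16, interval 1.71 to 2.66). Fzd2 had 284 counts in library 2 and 77 in library 1, a log2 ratio of 1.45 (interval 1.09 to 1.84). Of these 11, only Lrp5, Porcn, Ror2, Fzd2 and Wnt4 were among the 24 members with a mean count of at least 50. There 20.8% of the members and 36.6% of all genes were higher. With no count minimum 21 of 47 members (44.7%) were higher, where 39.1% of all genes were. All 11 passed also with DESeq2's size factors, with a prior count of 5 and with the length trend removed, settings in which 36.6%, 36.1% and 31.8% of all genes were higher.

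The members lower in library 2 were Wnt5a, Wls, Fzd4, Ror1, Lgr4, Rspo2, Rspo3, Dkk2 and Wif1. Lgr4 had 5666 counts in library 2 and 10623 in library 1, a log2 ratio of -1.34 with a counting interval of -1.38 to -1.29. Wls had 3221 counts in library 2 and 6549 in library 1 (-1.45, interval -1.51 to -1.39), and Wnt5a had 434 and 805 (-1.32, interval -1.49 to -1.15). The counting intervals of these 3 genes lie wholly past 2-fold on the scaled counts. Rspo3 had 163 counts in library 2 and 353 in library 1, a log2 ratio of -1.54 (interval -1.82 to -1.27). Rspo2, with 8 counts in library 2 and 14 in library 1, had an interval of -2.70 to 0.12 that includes no difference. With either of the GC trends described below taken off, 0 of the 9 were still lower by 2-fold: Lgr4 was then at -0.51 and 0.08, Wls at 0.23 and -0.08, and Wnt5a at -0.50 and -0.14. Scaled to nuclear protein-coding totals 6 of the 9 remained, without Fzd4, Ror1 and Rspo2. None of the 9 was lower by 2-fold as a ratio of TPM values, a scale on which 18 members (51.4%) were higher and 0 lower. On that scale 54.3% of all genes were higher and 5.16% lower, and their median log2 ratio was 1.24.

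Near equality on the scaled counts, Fzd1 had 1012 counts in library 2 and 731 in library 1 (0.04, interval -0.10 to 0.18) and Fzd5 had 2423 and 1956 (-0.12, interval -0.21 to -0.03). Wnt2b had 476 counts in library 2 and 294 in library 1, a log2 ratio of 0.27 (interval 0.05 to 0.48), and Dkk3 had 1036 and 894 (-0.22, interval -0.35 to -0.09). Lrp6 lay just inside the limit at -0.99 (interval -1.04 to -0.93). The remaining members that were neither higher nor lower ran from -0.98 for Frzb to 0.65 for Wnt8b.

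**Figure D3:**
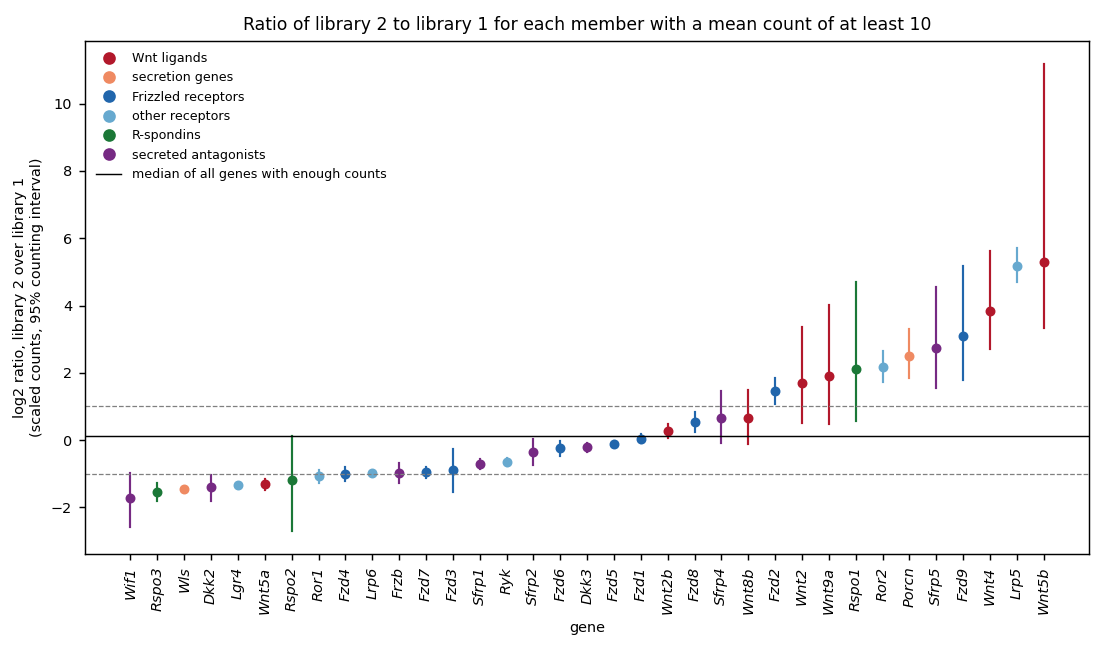
Log2 ratio of TMM-scaled counts, library 2 over library 1, for the 35 members with a mean count of at least 10, with 95% exact binomial counting intervals (bars) dashed lines at 2-fold and a solid line at the median of all genes, 0.12. The highest points are Wnt5b at 5.28 and Lrp5 at 5.17, and the lowest is Wif1 at -1.73.

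The order of the ratios followed the base composition of the transcripts. Over the 35 members, log2 ratio and GC content had Spearman's rho of 0.88 and Pearson's r of 0.79. Over 15664 genes the same correlation was 0.90 and 0.84, all points being genes of the same 2 libraries that share their depth and composition. The 11 higher members had a GC content between 52.1% and 62.2% with a median of 57.1%, and the 9 lower members between 42.0% and 47.3% with a median of 46.2%. Below 50% GC, 0 of 14 members were higher and 9 (64.3%) lower, where 2.59% of all genes were higher and 54.4% lower. At 55% GC or more, 10 of 12 members (83.3%) were higher and 0 lower, where 93.7% of all genes were higher and 0.615% lower. Transcript length followed the ratio less closely, with a rho of -0.20 over the members and -0.27 over all genes.

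Within bins of 2 percentage points of GC content, 9 of the 35 members lay below the 10th percentile of all genes and 1 above the 90th, limits that leave out 10% of all genes on each side. The 9 are Wnt2b, Fzd1, Fzd2, Fzd5, Fzd7, Sfrp1, Sfrp2, Frzb and Wif1, and the 1 above is Fzd3. Wnt2b, with a GC content of 56.5%, had a log2 ratio of 0.27 where all 1342 genes of its bin had a median of 3.53 and a 10th percentile of 1.48. Fzd7 (53.9% GC) had -0.96 where its bin had a median of 1.39 and a 10th percentile of 0.05. Fzd1 (55.7% GC) had 0.04 where its bin had a median of 2.36. These bins were looked at after the ratios were known, and this count is a description.

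**Figure D4:**
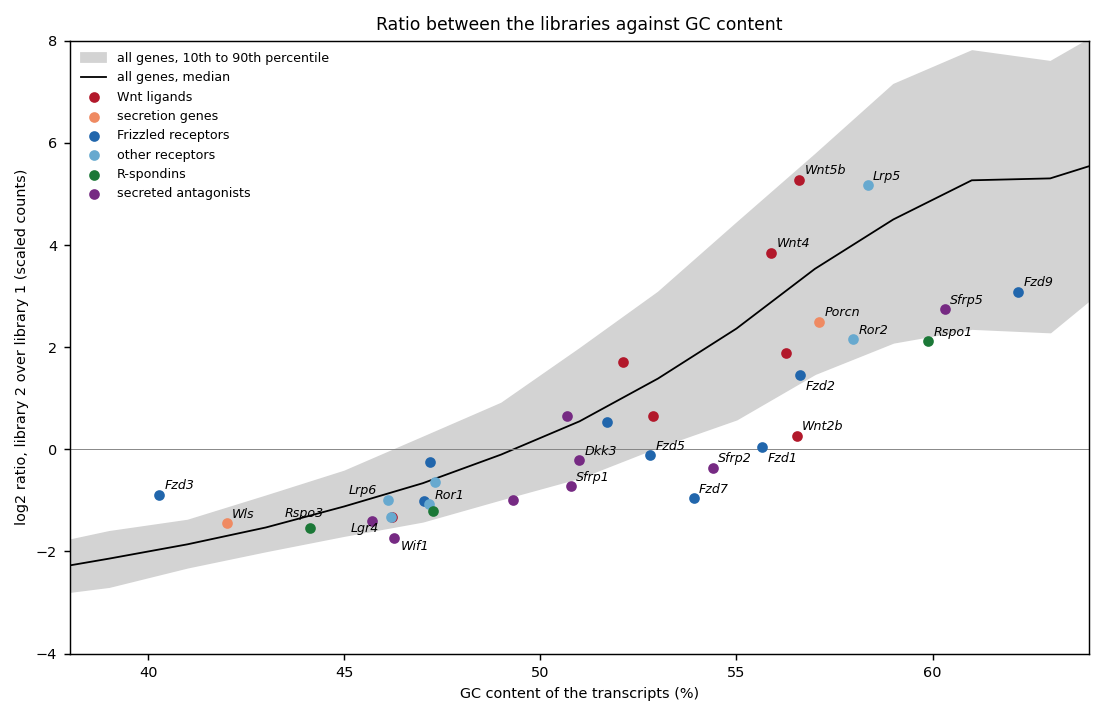
Log2 ratio of scaled counts, library 2 over library 1, against the GC content of the transcripts (percent) for the 35 members (points by role), with the median (line) and 10th to 90th percentile (grey band) of all genes in bins of 2 percentage points. Wnt2b, Fzd1, Fzd7 and Sfrp2 lie under the band, and Wnt5b and Lrp5 lie above the line but within the band.

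Removal of the GC trend changed which members passed 2-fold. With it off, Wnt5b (2.01), Fzd3 (1.07) and Lrp5 (1.05) were higher, 3 of 35 members (8.57%). Lower were 13 (37.1%), among them Wnt2b at -2.98, Fzd7 at -2.77, Fzd1 at -2.73, Rspo1 at -2.64 and Sfrp2 at -2.43. Over all genes 14.6% were then higher and 12.1% lower. The trend with the GC content of the lowest 400-base window of each transcript was taken off instead. This measure was added after the data had been seen. It gave 12 of 35 members (34.3%) higher and 1 (2.86%) lower, where all genes had 18.5% higher and 15.3% lower. Fzd1 was then at 1.22, Fzd7 at 0.20, Sfrp2 at 0.70 and Wnt2b near 0, so the direction of these 4 on the first measure did not hold on the second. In Fzd1 the lowest window had 31.8% GC against 55.7% for the whole transcript. Wnt5b and Lrp5 passed 2-fold on the scaled counts and on both trend-free measures, at 3.64 and 2.57 with the window trend off. What sets the trend was not tested.

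**Figure D5:**
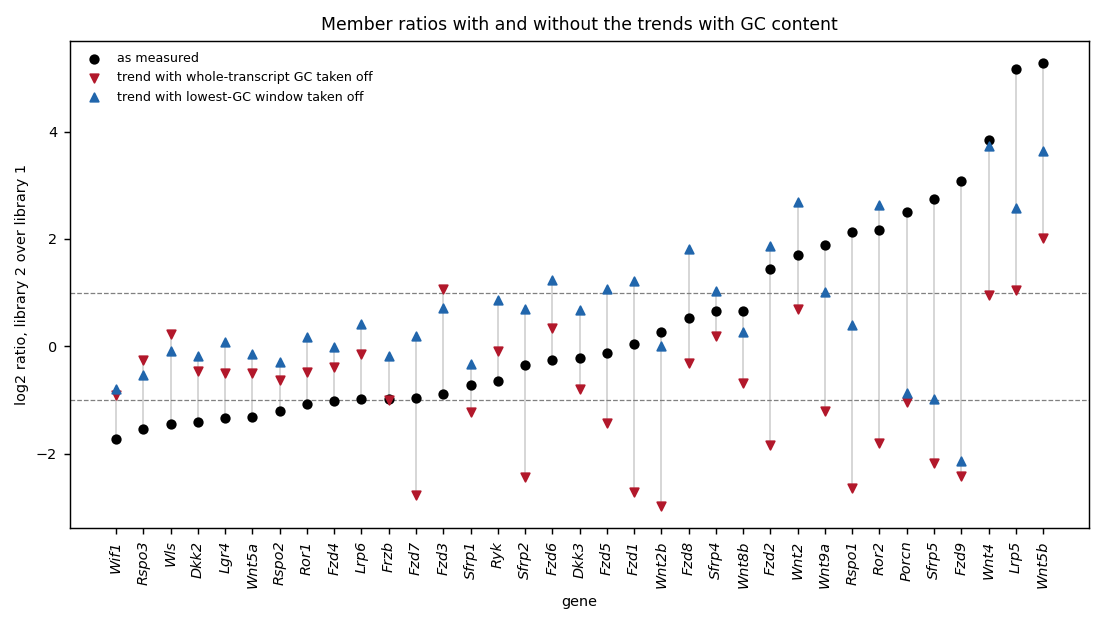
Log2 ratio, library 2 over library 1, of each of the 35 members as measured on scaled counts (circles), with the whole-transcript GC trend taken off (red) and with the trend of the lowest-GC 400-base window taken off (blue), with dashed lines at 2-fold. Wnt5b at 5.28, 2.01 and 3.64 and Lrp5 at 5.17, 1.05 and 2.57 stay above the upper line on all 3, and Fzd9 lies at 3.09 as measured and at -2.43 and -2.14 with the trends off.

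The shares of transcripts within a gene were read for the 15 members with a mean of at least 5 TPM, 8 of which have 1 transcript listed. In 6 of the other 7 the same transcript led in both libraries. Lrp5 was the exception. Its full-length coding transcript Lrp5-201 held 87.1% of the gene in library 2 (1520 estimated counts) and 0% in library 1 (0 counts), or 86.6% and 6.40% by the authors' posterior means. Lrp5-204, which the annotation marks as a target of nonsense-mediated decay, held 3.62% in library 2 and 63.9% in library 1, from 110 and 29.9 estimated counts. Lrp5-203, marked the same way, held 7.97% in library 2 and 36.1% in library 1. With 35 counts for the gene in library 1, these shares rest on few reads there.

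Ryk was divided among several transcripts. Ryk-201 held 62.9% in library 2 and 41.0% in library 1, and Ryk-203 held 36.2% in library 2 and 24.6% in library 1. The retained-intron transcript Ryk-202 held 0% in library 2 and 29.8% in library 1. Wnt5a was divided between Wnt5a-202, with 51.0% in library 2 and 60.9% in library 1, and Wnt5a-201, with 36.9% in library 2 and 37.8% in library 1. Fzd6-202 held all of Fzd6 in library 2 and 65.1% in library 1. By contrast Lgr4-201 held 96.3% of its gene in library 2 and 96.9% in library 1, Lrp6-201 held 98.2% and 100%, and Fzd5-201 held 97.8% and 100% in the same libraries.

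The other genes of the pathway were read from a list of 52, of which 50 had a mean count of at least 10. Of these 24 (48.0%) were higher in library 2 and 9 (18%) lower, where 37.2% of all genes were higher and 28.3% lower, with a median log2 ratio of 0.92. Their ratios followed GC content too, with a rho of 0.91. With the GC trend off 3 (6.00%) were higher and 14 (28.0%) lower, where 14.6% of all genes were higher and 12.1% lower. The window trend taken off instead left 20 (40.0%) higher and 5 (10.0%) lower, where 18.5% of all genes were higher and 15.3% lower. Scaled to nuclear protein-coding totals, 27 (54.0%) were higher and 5 (10.0%) lower, where 40.7% of all genes were higher and 22.8% lower. Ctnnb1, which encodes β-catenin, was the most abundant, with 424 TPM in library 2 and 207 TPM in library 1 and a log2 ratio of scaled counts of -0.15. Csnk1a1 and Csnk1d, casein kinases that phosphorylate pathway proteins, had ratios of -1.83 and 1.86. Tnks2, a tankyrase that marks Axin for breakdown, was at -1.58 and Tcf7l2, the main partner of β-catenin on DNA in the gut epithelium, at -1.25. Of the genes with a mean count of at least 100, Bcl9l, a β-catenin co-activator, was highest with 768 counts in library 2 and 0 in library 1. That is 190-fold if library 1 is given the floor of 3 counts. The lower limit of its counting interval was a log2 ratio of 7.27. Bcl9l was followed by Ptk7, a planar polarity receptor (7.07, interval 5.53 to 10.44), and the Dishevelled gene Dvl1 (4.74). After Csnk1a1 and Tnks2 the lowest was the glypican Gpc6 (-1.56). Notum, which removes the lipid from Wnts, had 6 counts in library 2 and 0 in library 1, and Sost had 0 in both.

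Marker genes of the tissue's cell types also differed between the libraries. On the scaled counts their calls stand beside the 37.2% of all genes that were higher and the 28.3% that were lower. The 9 epithelial markers summed to 7789 TPM in library 2 and 950.3 TPM in library 1, with 6 of 9 higher and 0 lower. Krt8 and Krt19 led them by mean TPM and in library 2, but in library 1 Epcam led with 451 TPM, followed by Cdh1 with 195 TPM. Epcam and Cdh1 were near equal on the scaled counts, at log2 ratios of -0.08 and -0.05. The 7 smooth muscle markers, led by Actg2 and Tagln, summed to 4816 TPM in library 2 and 330 TPM in library 1, with 7 of 7 higher. Among the stromal cells that are known sources of Wnts and R-spondins, the 7 fibroblast markers summed to 1003 TPM in library 2 and 709 TPM in library 1 with 1 higher and 2 lower. The 5 crypt-top telocyte markers summed to 62.7 TPM in library 2 and 78.3 TPM in library 1, with 2 higher and 2 lower. The 5 trophocyte and crypt-base fibroblast markers summed to 262 TPM in library 2 and 109 TPM in library 1, with 3 higher and 1 lower. The sums of the other 10 marker lists were higher in library 2 than in library 1, from enteric neurons with 87.3 and 82.2 TPM to red blood cells with 2803 and 70.9 TPM in the same libraries. All these sums are TPM, which the larger mitochondrial share lowers in library 1, where nuclear protein-coding genes as a whole held less TPM. On scaled counts the median log2 ratio was -0.69 for enteric neurons and -0.06 for interstitial cells of Cajal, and above 0 for the rest of the 10. With the GC trend off, medians fell from 1.94 to 0.45 in epithelium and 2.73 to 1.43 in smooth muscle. They fell from -0.35 to -1.23 in fibroblasts and 1.66 to 0.59 in trophocytes, and rose from -0.91 to -0.56 in telocytes. Of all the markers only Hba-a1, a red blood cell gene, was at 0, in library 1. The part of these markers in the ratios of the Wnt genes was not tested.

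The exons of 7 members (Fzd5, Fzd6, Rspo3, Sfrp2, Wnt5a, Wnt7b and Wnt11) overlap a gene on the opposite strand, and the strand setting of the counting is not given in the sources used here. The overlapping genes with a value had at most 5 counts in library 2 and 11 in library 1, far under those of Fzd5, Fzd6, Sfrp2 and Wnt5a.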

How the data were processed

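Each library has a gene table and a transcript table on mouse assembly mm10 with GENCODE M4, per the text files deposited beside them. Aligner, quantifier, version and strand setting were not given in the sources used here. Per the file headers, the authors' expected counts share reads that match several transcripts out by a model. The deposited tables also hold the authors' TPM, a length-corrected level scaled to 1 total, and the percent of a gene that each transcript makes up. Expected counts summed to 20681574 in library 2 and to 25843064 in library 1.

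Of 69691 entries, the 43346 Ensembl genes were used, and 42462 had a symbol. All 52 members were found. The members and the lists were chosen with earlier results of these data known. Expected counts were rounded to whole numbers and scaled by TMM (edgeR 4.0.16 in R 4.3.3), with a prior count of 0.5. With 1 library on each side edgeR's quasi-likelihood test has no residual degrees of freedom, so no test was made. Each member with a mean of at least 1 TPM was named with both values, and the rest were given by range and count. Wnt2, Wnt3, Wnt4, Wnt8b, Lgr6, Rspo1, Rspo2, Rspo4 and Dkk1, which average less, were given values after these were seen. Of the other pathway genes the 5 highest by TPM and the 3 highest and 3 lowest ratios with a mean count of at least 100 were named, and Notum and Sost were named after their values were seen. At most 2 markers a list were named, the highest by TPM and any at 0, and Hba-a1, Epcam and Cdh1 were chosen after their values were seen. Markers were taken for epithelium, smooth muscle, fibroblasts, telocytes, trophocytes and 10 other cell types.

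GC content came from GENCODE M21 transcripts on GRCm38, the assembly of mm10, weighted by TPM. Of 108 member transcripts 107 were matched and 88 had the same length. Trends were lowess curves (fraction 0.2, statsmodels 0.14.6 in Python 3.11.15). In simulated data with 200 genes changed and no GC trend, the median log2 ratio was recovered within 0.044. In the real libraries 65.6% of 15711 genes passed 2-fold, so this checks the calculation only and not the scaling of these ratios. Alternatives were DESeq2 1.42.0 size factors, TPM ratios, nuclear protein-coding scaling, other count minimums, other TPM thresholds, a prior count of 5, the authors' posterior values and trends with GC content and length.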

Additional observations from a re-analysis of the deposited data

How the results depend on the processing

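With DESeq2 size factors, a prior count of 5 and the length trend taken off, all 11 members higher in library 2 remained so. Of the 9 lower, 9, 8 and 7 remained so in the same order, and 12, 8 and 10 members in all were lower. Over all genes 29.6%, 27.9% and 35.0% were lower in these settings. On the ratio of TPM values 18 members were higher and 0 lower. With no count minimum 21 of 47 were higher, and with a minimum of 50 counts 5 of 24 were. With the GC trend taken off 3 were higher and 13 lower, and with the window trend 1, Fzd9, was lower. None of the 9 lower on the scaled counts was among these. The members' median log2 ratio, -0.22, was 1.07 on TPM, 0.047 with nuclear protein-coding scaling, 0.53 with no minimum, -0.50 with 50 counts, -0.64 with the GC trend off, -0.11 with the length trend off and 0.40 with the window trend off. Of the other pathway genes, 24 higher became 3 with the GC trend off but 20 with the window trend off. The 9 lower became 0 on TPM, 5 with protein-coding scaling, 14 with the GC trend off and 5 with the window trend off. Among members past 2-fold, signs turned with the GC trend off for Wnt9a (-1.21), Sfrp5 (-2.17), Ror2 (-1.80), Wls (0.23), Rspo1 (-2.64), Porcn (-1.04), Fzd9 (-2.43) and Fzd2 (-1.84). They turned on TPM for Ror1 (0.091) and Fzd4 (0.16), and with the window trend off for Sfrp5 (-0.98), Porcn (-0.86), Ror1 (0.17), Fzd9 (-2.14) and Lgr4 (0.080). Signs also turned for 6, 10 and 9 members within 2-fold under the GC trend, TPM and window settings, in that order. The cause was not tested.

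With nuclear protein-coding scaling the mean sums became 35.7 for ligands, 192 for secretion genes, 117 for Frizzled receptors, 383 for other receptors, 15.2 for R-spondins and 82.96 for antagonists. Leaving out either library gave 20 to 29 members at 1 TPM, and sums of 11.5 to 26.2, 77.7 to 87.8, 40.1 to 79.6, 162 to 188, 6.23 to 6.92 and 30.3 to 52.2 TPM in the same order. A ratio needs both libraries, so it has no such range. No paired analysis was possible because the 2 libraries form 1 group. Depth limits the 17 members with a mean count under 10, which have no ratio here.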
